A study of Mus musculus with 10 samples.

Results

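The YAP and TEAD pathway genes described here are 10 genes, namely Yap1, Tead1, Tead2, Vgll3, Lats2, Ccn1, Ccn2, Amotl2, Ankrd1 and Axl. They were picked by name, and every probe set annotated to one of them alone was read, which gave 24 probe sets for 10 genes among 34945 named probe sets for 18193 genes. Earlier results of these same arrays were known when the genes were picked. Their EBIO differences are therefore a description without p-values, while the other pathway genes were tested.

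YAP is a coactivator without DNA binding of its own. The Hippo kinase cascade controls it: the kinases encoded by Stk3 and Stk4, with Sav1, act on Lats1 and Lats2, with Mob1a and Mob1b, which phosphorylate YAP and its paralog TAZ and keep them out of the nucleus. Unphosphorylated YAP binds the TEAD transcription factors and turns on genes such as Ccn1, Ccn2, Ankrd1, Amotl2 and Axl. Cell stretch, spreading and actin tension raise YAP activity, and several target genes, Lats2 and Amotl2 among them, encode proteins that feed back on it. In the embryonic heart YAP is known for driving cardiomyocyte growth. An array measures mRNA, not the phosphorylation or location of YAP.

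CGR8, the source of the RNA, is a single mouse embryonic stem (ES) cell line of strain SV129; the RNA was hybridised to 10 Affymetrix arrays. The question of the study, from its title, is whether modulating calcium-activated potassium channels drives pluripotent cells towards heart cells. EBIO is a compound that opens such channels of small and intermediate conductance. By the series' design text, replicates within a group are separate experiments. The first group was ES cells given 1 mM EBIO over 3 days (n = 3), set against untreated ES cells (n = 3), each with 1 sample from passages 25, 26 and 27. The second was differentiated cells that grew for 10 days with EBIO after 5 days as embryoid bodies (n = 2), set against differentiated cells grown the same way without it (n = 2); their EBIO dose is not given in the sources used here. Every value is the authors' log2 RMA value, and every difference is EBIO minus control on that log2 scale. "Called" means an adjusted p under 0.05 from limma, Benjamini-Hochberg adjusted over all genes of a comparison. A gene was tested when it passed the array median on at least 3 ES or 2 differentiated arrays, and a value at or under that median is called dim. Whole cultures were measured, so fewer cells of a type and less RNA per cell cannot be told apart.

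Across the arrays, replicates correlated at 0.982 to 0.997. For each pair of arrays the absolute difference between their quantiles of deposited values was averaged over all quantiles. This mean was at most 0.0931 among the ES arrays and 0.0497 among the differentiated arrays. Between an ES and a differentiated array it was at least 0.908. Whether RMA was run on each set of arrays by itself is not given in the sources used here. Levels across stages carry that shift, so only differences within a stage were tested. EBIO changed a large part of both transcriptomes: 44.8% of 12096 genes tested were called in ES cells and 65.9% of 12338 in differentiated cells. The cells also differed in their markers. In ES cells all 8 pluripotency markers were lower with EBIO, their summed linear level being 2051 to 2367 in EBIO arrays and 28433 to 30863 in control arrays, Tcl1 and Tdgf1 passing the median on 1 EBIO array each. In differentiated cells all 9 cardiomyocyte markers were higher with EBIO (summed level 100072 to 101770, against 13557 to 15023 in controls). All 8 fibroblast markers were lower (3714 to 3961 with EBIO, with Lum and Thy1 dim, against 56460 to 58393 in controls), as were all 6 macrophage markers (129.5 to 139.4 with EBIO, all dim, against 12002 to 14266 in controls).

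RefSeq promoters on GRCm38.p6 were found for 8 of the 10 genes; Ccn2 and Tead1 had no entry in the table used. The core letters of the TEAD motif, GGAATG, searched on both strands, stood within the 250 bases before the start of 6 of those 8 genes (Ccn1, Ankrd1, Amotl2, Vgll3, Axl and Yap1), and in neither Tead2 nor Lats2. Of 27025 genes with a promoter in the table, 14.4% held it. The AP-1 core TGANTCA was in 0 of the 8 (7.82% of all genes), and the CArG box, the motif of serum response factor, also in 0 of the 8 (1.62% of all genes), so no TEAD match overlapped either. The windows shown are those of the 3 genes with a match and the largest EBIO differences in ES cells, and that of Ankrd1, which had the largest difference in differentiated cells. They lie at chr3:145649986-145650235 (minus strand), chr9:102717554-102717803 (plus), chr16:65814939-65815188 (plus) and chr19:36119845-36120094 (minus), in that order, and each reads 5′ to 3′ along its gene up to the base before the start. Capitals mark GGAATG or its reverse complement.
Ccn1: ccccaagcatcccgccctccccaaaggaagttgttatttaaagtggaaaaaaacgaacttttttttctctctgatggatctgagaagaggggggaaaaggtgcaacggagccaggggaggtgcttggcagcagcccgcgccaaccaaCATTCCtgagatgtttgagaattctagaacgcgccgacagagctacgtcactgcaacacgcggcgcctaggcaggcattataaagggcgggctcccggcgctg
Amotl2: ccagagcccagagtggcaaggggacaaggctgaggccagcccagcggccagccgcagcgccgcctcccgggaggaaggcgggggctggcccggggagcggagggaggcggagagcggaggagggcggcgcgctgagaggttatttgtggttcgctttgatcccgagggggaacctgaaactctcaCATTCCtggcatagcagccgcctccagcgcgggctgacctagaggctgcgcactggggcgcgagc
Vgll3: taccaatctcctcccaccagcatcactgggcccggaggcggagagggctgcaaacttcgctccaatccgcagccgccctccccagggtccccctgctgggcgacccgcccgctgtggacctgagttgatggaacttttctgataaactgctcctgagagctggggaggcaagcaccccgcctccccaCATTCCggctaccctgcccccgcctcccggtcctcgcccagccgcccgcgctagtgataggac
Ankrd1: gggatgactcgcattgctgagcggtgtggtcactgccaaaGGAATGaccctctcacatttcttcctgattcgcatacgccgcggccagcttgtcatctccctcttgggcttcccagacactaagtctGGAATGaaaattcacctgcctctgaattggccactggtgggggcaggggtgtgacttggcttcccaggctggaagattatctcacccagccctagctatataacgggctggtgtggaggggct
The first base of the match lay 103 bases before the start in Ccn1, 65 in Amotl2 and 63 in Vgll3, and Ankrd1 had matches 210 and 123 bases before its start. A match is a string of letters, not a measured binding site.

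In ES cells EBIO arrays stood above control arrays for 6 of the 8 pathway genes tested: Vgll3, Ccn1, Ccn2, Amotl2, Lats2 and Tead1. Yap1 and Tead2 overlapped, and Ankrd1 and Axl were too dim to be tested. Of all genes tested, 27.9% had EBIO arrays wholly above control, 23.5% were called higher and 21.2% lower, and the same 6 pathway genes were called higher; nothing is read from these counts, since the genes were picked with this comparison known. Counted from the largest rise, the differences of Ccn1, Ccn2, Amotl2 and Tead1 ranked 5, 36, 58 and 433 among the 12096 genes. Those of Vgll3 and Lats2 are given no rank, since 2 of the 3 control arrays were dim for Vgll3 and all 3 for Lats2.

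Differentiated cells gave another pattern: 6 of the 10 genes stood above control with EBIO (43.4% of all genes tested did so), Tead2 and Axl stood below (41% of all genes), and Lats2 and Yap1 overlapped. Those 6 were called higher (33.3% of all genes) and those 2 lower (32.6%), which is again a description only. Ankrd1 had by far the largest difference of the 10 and ranked 14 of 12338 genes, counted from the largest rise. The remaining 9 moved by at most 1.34 log2 units. The plot of array values shows each gene in the 4 groups.

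**Figure D1:**
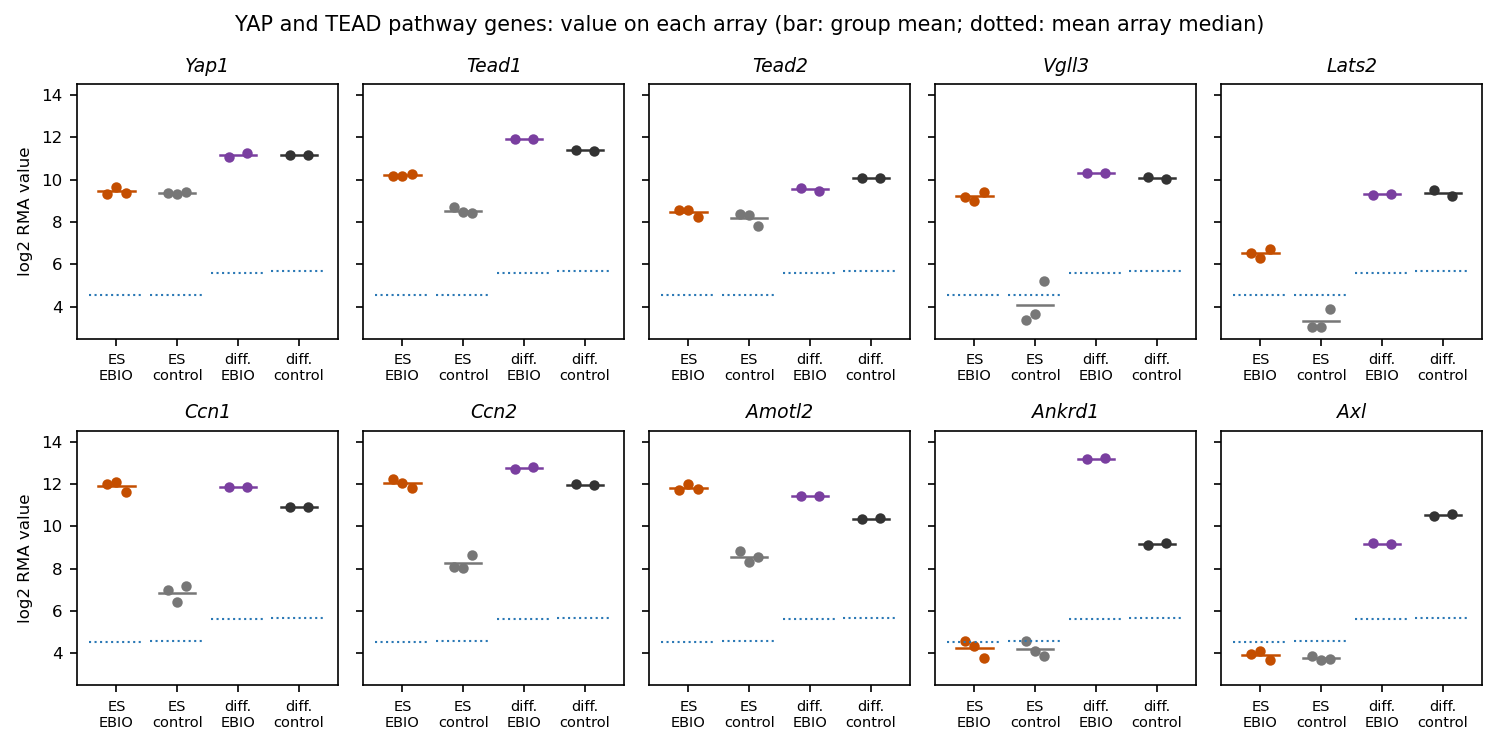
Log2 RMA value (vertical axis) of each of the 10 pathway genes on each array, by group (ES cells with EBIO, ES controls, differentiated cells with EBIO, differentiated controls). Points are arrays, short bars group means and dotted lines the mean array median of the group; Ccn1 sits at 11.60 to 12.07 in EBIO-treated ES cells against 6.42 to 7.17 in controls, while Ankrd1 is dim in ES cells and lies at 13.16 to 13.23 with EBIO against 9.13 to 9.19 in differentiated controls.

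Yap1 itself, the gene of the coactivator, hardly differed. It measured 9.34, 9.65 and 9.36 on the EBIO arrays of ES cells, against 9.38, 9.33 and 9.40 on the control arrays, and 11.09 and 11.25 on the EBIO arrays of differentiated cells, against 11.19 and 11.17 on their controls. The groups overlapped at both stages, and the differences were 0.08 (SE 0.13) in ES cells and -0.01 (SE 0.08) in differentiated cells. A second probe set read 0.08 and -0.25, with its differentiated EBIO arrays below control.

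Among its DNA-binding partners, Tead1 was higher with EBIO at both stages. In ES cells it measured 10.17, 10.17 and 10.28 with EBIO, against 8.70, 8.49 and 8.44 in controls, a 3.17-fold difference (1.66 log2, SE 0.12). In differentiated cells it read 11.94 and 11.94 with EBIO, against 11.42 and 11.35 in controls (0.56, SE 0.07). No EBIO array overlapped a control array at either stage, and its second probe set differed by 1.75 and 0.89. Tead2, a TEAD factor prominent in early embryonic cells, did otherwise. Its ES arrays read 8.59, 8.59 and 8.22 with EBIO, against 8.36, 8.35 and 7.83 in controls, which overlapped (0.29, SE 0.18). Its differentiated arrays read 9.63 and 9.45 with EBIO, against 10.07 and 10.07 in controls, so that EBIO stood lower (-0.53, SE 0.08).

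Vgll3, a vestigial-like cofactor that binds TEAD factors in competition with YAP, had the largest ES difference of the set. It measured 9.19, 9.02 and 9.43 with EBIO, against 3.37, 3.67 and 5.22 in controls. Only control array 3 passed its array median, so the 5.13 log2 units (SE 0.42) rest on dim controls and the low end of the RMA scale understates such a change. The 3 Vgll3 probe sets gave 3.62 to 5.13. In differentiated cells both groups were bright and close, at 10.32 and 10.32 with EBIO and 10.12 and 10.04 in controls (0.24, SE 0.07).

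Lats2 encodes a kinase that phosphorylates YAP, and its 6 probe sets disagreed. The brightest read 6.55, 6.33 and 6.74 with EBIO, against 3.06, 3.06 and 3.91 in ES controls, all 3 dim, so it stood at least 3.90-fold higher, taking the controls at their array medians. Another probe set differed by 1.40, with dim controls, and the other 4 by -0.04 to 0.18, all overlapping; the mean of the 6 probe sets differed by 0.81. In differentiated cells the brightest read 9.30 and 9.33 with EBIO, against 9.52 and 9.21 in controls, which overlapped (-0.05, SE 0.11). Other Lats2 probe sets differed there by -0.13, -0.26 and -0.23, each with EBIO arrays below control. The remaining ones were dim on every differentiated array and differed by 0.33 and 0.14.

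Of the target genes, Ccn1 and Ccn2 encode secreted matricellular proteins that are standard readouts of YAP activity. Ccn1 measured 11.97, 12.07 and 11.60 in EBIO-treated ES cells, against 7.01, 6.42 and 7.17 in controls, 32.3-fold higher (5.01 log2, SE 0.21). In differentiated cells it read 11.88 and 11.87 with EBIO, against 10.89 and 10.90 in controls, 1.96-fold higher (0.97, SE 0.07). All 4 Ccn1 probe sets separated the groups at both stages, by 3.14 to 5.30 in ES cells and 0.82 to 0.97 in differentiated cells. Ccn2 read 12.23, 12.03 and 11.80 with EBIO, against 8.08, 8.03 and 8.65 in ES controls, 13.6-fold higher (3.77, SE 0.19). It read 12.71 and 12.82 with EBIO, against 11.98 and 11.97, in differentiated cells (0.79, SE 0.07). Both genes were thus separated in every pair of arrays, with the smaller difference after differentiation, where the controls were already bright.

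Amotl2, an angiomotin-family scaffold that binds YAP and is also one of its targets, followed the same order. It measured 11.70, 11.99 and 11.78 with EBIO, against 8.84, 8.30 and 8.56 in ES controls, 9.54-fold higher (3.25, SE 0.16). In differentiated cells it read 11.41 and 11.41 with EBIO, against 10.33 and 10.37 in controls, 2.08-fold higher (1.06, SE 0.07). The arrays did not overlap at either stage.

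Ankrd1, a nuclear and sarcomeric ankyrin-repeat protein of stressed heart muscle and a YAP target, was the exception. In ES cells it read 4.56, 4.34 and 3.80 with EBIO, against 4.59, 4.13 and 3.88 in controls; these overlapped and only 1 of the 6 passed its array median. In differentiated cells it read 13.16 and 13.23 with EBIO, against 9.13 and 9.19 in controls, 16.4-fold higher (4.03, SE 0.07), and its second probe set gave 4.11. The 9 cardiomyocyte markers were higher on the same arrays, and their part in the Ankrd1 difference was not tested.

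Axl, a receptor tyrosine kinase of the TAM family and a YAP target in several cell types, went the other way. It was dim on all 6 ES arrays (3.97, 4.13 and 3.67 with EBIO, against 3.86, 3.70 and 3.73 in controls). In differentiated cells it read 9.19 and 9.15 with EBIO, against 10.46 and 10.56 in controls, 2.54-fold lower (-1.34, SE 0.07). Its other probe set was dim on every array, and the mean of both differed by -0.62. Fibroblast and macrophage markers were lower on the same EBIO arrays; their part was not tested.

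**Figure D2:**
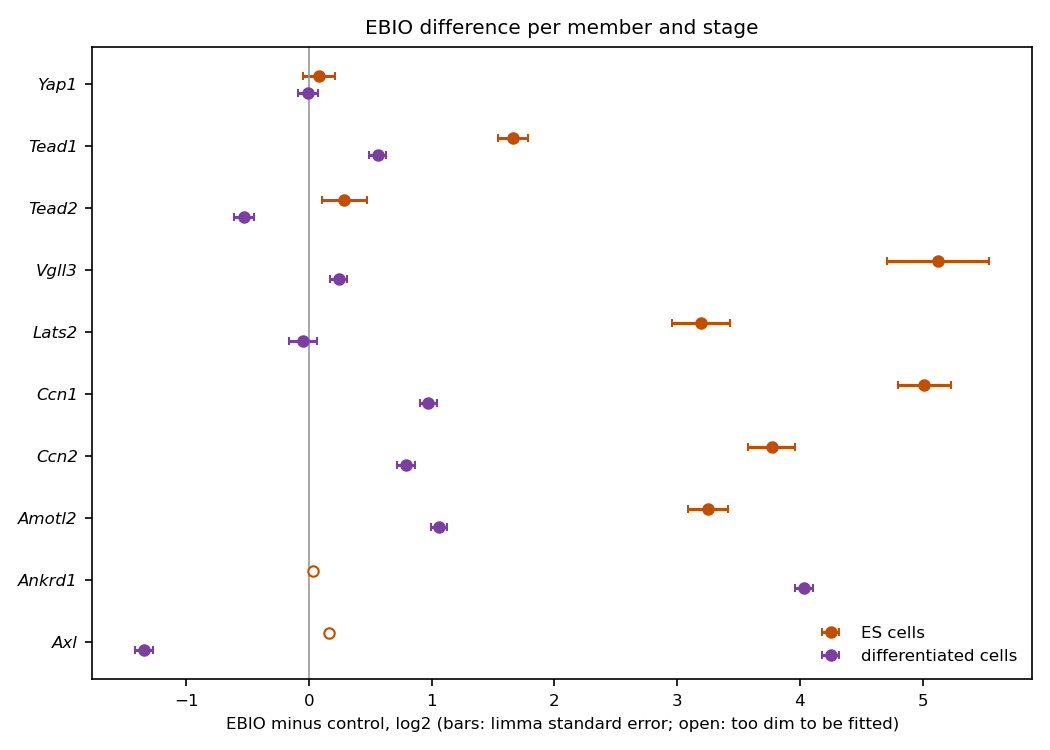
EBIO minus control (horizontal axis, log2) for the 10 pathway genes in ES cells and in differentiated cells; bars are limma standard errors and open points are genes too dim to be fitted. Vgll3, Ccn1, Ccn2, Amotl2 and Lats2 lie between 3.20 and 5.13 in ES cells and between -0.05 and 1.06 in differentiated cells, Ankrd1 lies at 0.04 and 4.03, and Axl falls left of 0 in differentiated cells at -1.34.

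**Figure D3:**
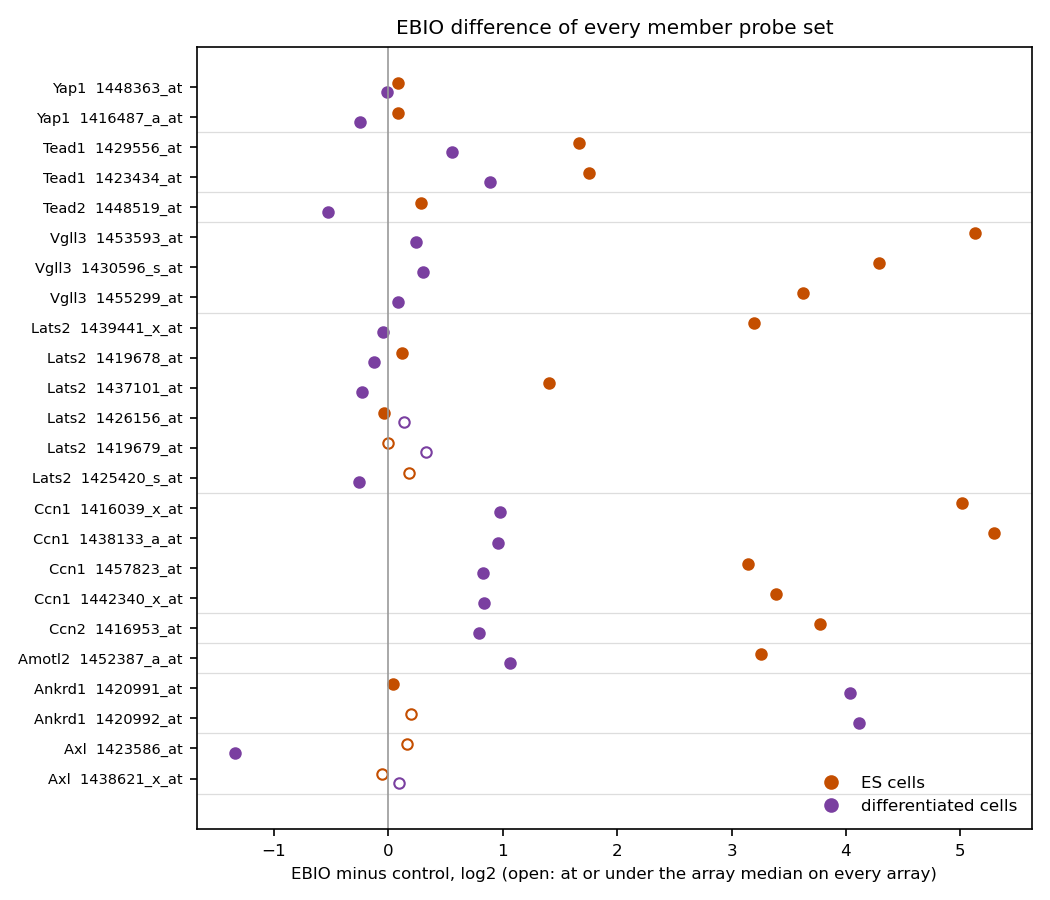
EBIO minus control (horizontal axis, log2) for all 24 probe sets of the 10 genes in ES cells and in differentiated cells; open points were dim on every array of the stage. In ES cells 14 probe sets separated the groups with EBIO above, 0 with EBIO below and 10 overlapped. In differentiated cells the counts were 15, 6 and 3. Of all genes tested, 27.9% stood wholly above control in ES cells, and 43.4% above and 41% below in differentiated cells. No share was taken over probe sets, which are not independent within a gene, so nothing is read from these counts. The 6 Lats2 probe sets spread from -0.04 to 3.20 in ES cells.

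Between the stages, the difference in differentiated cells minus that in ES cells was -4.89 for Vgll3, -4.04 for Ccn1, -2.98 for Ccn2, -2.19 for Amotl2 and -1.10 for Tead1. For Lats2 it was -3.25 with its brightest probe set, -0.84 with the mean of its 6 probe sets and -3.94 after quantile normalization. It was -1.50 for Axl (-0.68 with the mean of both probe sets), -0.82 for Tead2 and -0.09 for Yap1, while Ankrd1 went the other way, with 4.03 in differentiated and 0.04 in ES cells. The Ankrd1 and Axl values set a bright stage against a dim one, and those of Lats2 and Vgll3 rest on ES controls that were dim on 3 and 2 of 3 arrays. Leaving out ES control array 3, in which Vgll3 was highest of the controls, moved its ES difference to 5.70.

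The order of the 4 group levels also differed by gene. Mean Ccn1 levels were 11.88 ± 0.25 (SD, n = 3) in ES cells with EBIO and 11.87 ± 0.01 (n = 2) in differentiated cells with EBIO, equal within their spread, with 10.90 ± 0.01 (n = 2) in differentiated controls and 6.86 ± 0.39 (n = 3) in ES controls. For Amotl2 the means were 11.82 ± 0.15, 11.41 ± 0.00, 10.35 ± 0.03 and 8.57 ± 0.27 in the same order of groups. Ccn2 was highest in differentiated cells with EBIO (12.77 ± 0.08), while ES cells with EBIO (12.02 ± 0.22) and differentiated controls (11.97 ± 0.01) were equal within their spread. For Tead1, Vgll3, Lats2, Yap1, Tead2, Ankrd1 and Axl both differentiated groups lay above both ES groups. After quantile normalization of all 10 arrays together Ccn1, Ccn2 and Amotl2 were highest in ES cells with EBIO (12.25, 12.39 and 12.20), with 11.22, 12.16 and 10.72 in differentiated cells with EBIO, Vgll3 was also highest there (9.71, against 9.53 in differentiated cells with EBIO), and Tead2 in EBIO-treated ES cells (8.97) passed its level in differentiated cells with EBIO (8.68). The order of the 4 group means was the same under both scalings for Ccn1, Amotl2, Tead1, Lats2, Yap1, Ankrd1 and Axl and changed for Ccn2, Vgll3 and Tead2. Untreated ES cells had the lowest mean both ways for all of the 10 genes but Tead2, though their arrays overlapped those of EBIO-treated ES cells for Yap1, Ankrd1 and Axl.

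Over the 10 arrays, with each stage's mean removed, Ccn1 correlated with Ccn2 at 0.996, with Amotl2 at 0.991 and with Yap1 at 0.369. The points of such a correlation fall into EBIO and control arrays, so it mostly compares the sizes of the EBIO differences. Among 10925 genes tested at both stages, 493 reached a correlation of 0.95 with Ccn1 and 545 with Ccn2. The 5 genes most like Ccn1 were Cnn2 (0.998), Actn1 (0.998), Selenon (0.996), Trp53i13 (0.996) and Bcar1 (0.995). Cnn2 encodes a calponin, Actn1 the actin crosslinker alpha-actinin 1, and Bcar1 an adaptor of focal adhesions. The 5 most like Ccn2 were Cacfd1, Sertad2, Rundc3b, Slc30a4 and Fmnl2 (0.995 to 0.996), Fmnl2 being a formin that elongates actin filaments. The other genes listed are given without a role, so no shared role is read from these genes.

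Around the 10 genes, 65 other genes of the pathway were taken in 8 lists, chosen by role and not by how they moved, though with earlier results known; 64 had a named probe set. In ES cells 29 of 55 tested rose and 3 fell with EBIO, beside 23.5% and 21.2% of all genes. The median difference was 0.62 (all genes -0.04). Pairing the passages gave 35 higher and 4 lower, beside 3333 and 3141 of all 12096 genes. In differentiated cells 25 of 59 rose and 19 fell, beside 33.3% and 32.6% of all genes, with a median of 0.07 (all genes 0.02). These shares of all genes are the background of the counts given below for each list in the unpaired fits on each stage's own arrays. The counts in differentiated cells depended on where the spread was taken from. A fit on all 4 groups, whose spread includes the ES arrays, kept every array and called 13 higher and 15 lower. Of all 12338 genes that fit called 2625 higher and 2973 lower, fewer than the shares above. Leaving out any 1 of the 4 differentiated arrays, done in that fit, gave 8 to 10 higher and 12 or 13 lower. Of the 34 named genes called in differentiated cells, 10 were not called in the fit on all 4 groups with every array kept, and 7 more were lost there without at least 1 array.

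**Figure D4:**
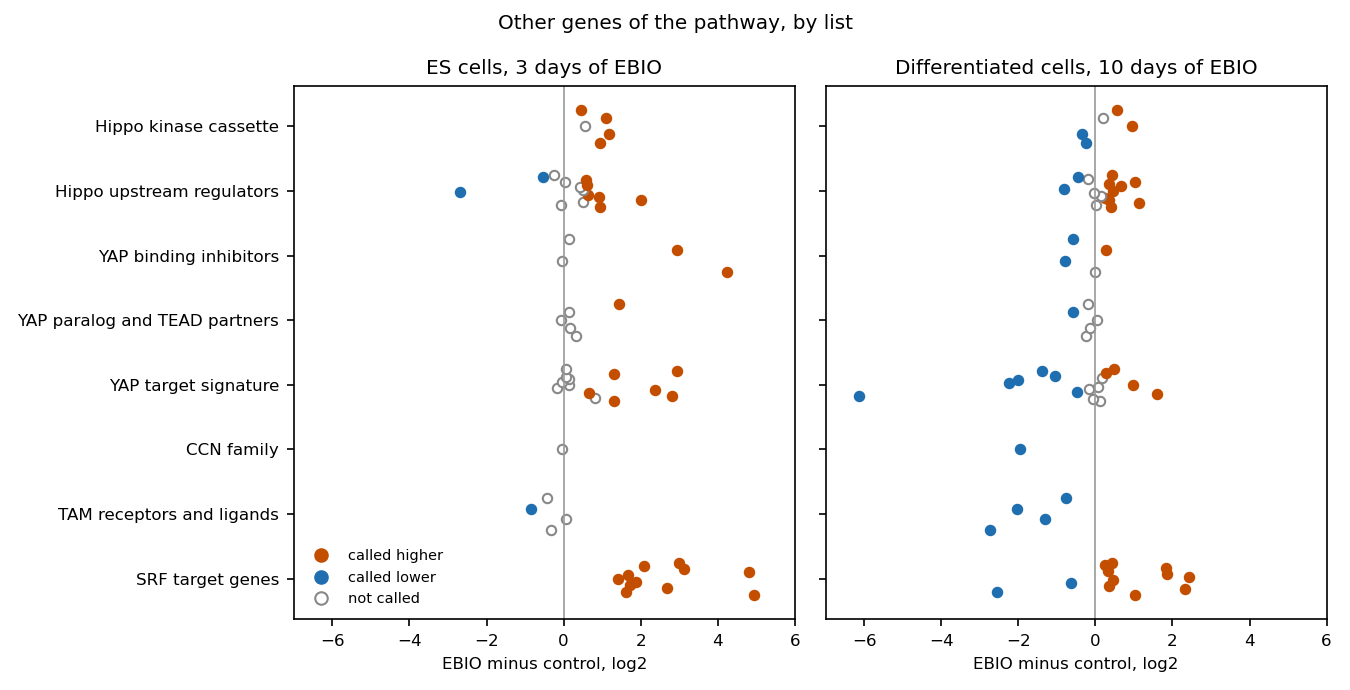
EBIO minus control (horizontal axis, log2) for each tested gene of the 8 pathway lists in ES cells (left) and differentiated cells (right), filled where called higher or lower and open where not called. In ES cells all 11 tested genes of the SRF list and 4 of 5 of the kinase list lie right of 0 and are filled; in differentiated cells all 4 TAM genes lie left of 0.

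The kinase cassette around Lats2 rose in ES cells: 4 of 5 tested genes were higher, with a median of 0.93. Mob1a, the LATS activator, read 9.27, 9.45 and 9.47 with EBIO, against 7.97, 8.28 and 8.41 in controls (1.17, SE 0.15, limma adjusted p = 0.000278), and its 3 probe sets gave 1.17 to 1.43. Sav1 (1.09, adjusted p = 0.0012), Lats1 (0.93, adjusted p = 0.00112) and Stk4 (0.44, adjusted p = 0.0238) also rose, the last losing its call without EBIO array 1, EBIO array 3, control array 1 or control array 2 (adjusted p = 0.0681 to 0.0796). Mob1b differed by 0.56, was not called (adjusted p = 0.131) and was called with the passages paired (adjusted p = 0.0191). Stk3 had no named probe set. In differentiated cells Stk4 (0.57, adjusted p = 0.00188) and Mob1b (0.95, adjusted p = 0.000183) rose and Mob1a (-0.35, adjusted p = 0.00615) and Lats1 (-0.23, adjusted p = 0.0398) fell. Lats1 lost its call in 10 of the 13 alternatives run. Mob1a was not called in the fit on all 4 groups with every array kept (SE 0.15, adjusted p = 0.0801), and its difference stayed at -0.38 to -0.32 whichever array was left out. Mob1b was called in that fit with every array (SE 0.30, adjusted p = 0.0233) but lost its call whichever array was left out, at differences of 0.89 to 1.01 (adjusted p = 0.0722 to 0.112). Stk4 lost its call in that fit without EBIO array 2 (0.50, adjusted p = 0.0542).

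Upstream of the kinases, 6 of 14 genes rose and 2 fell in ES cells, with a median of 0.50. Nf2, which encodes merlin, the membrane scaffold that activates LATS kinases, fell most: it read 7.09, 6.91 and 6.74 with EBIO, against 9.96, 9.77 and 9.06 in controls (-2.68, SE 0.23, limma adjusted p = 3.34e-05). The arrays did not overlap, and all 4 Nf2 probe sets were lower, by -0.88 to -2.68. Frmd6, the mammalian relative of fly Expanded, rose to 8.01, 8.13 and 8.12 with EBIO, against 5.98, 6.14 and 6.10 in controls (2.02, SE 0.12, adjusted p = 4.6e-06). Ajuba (0.95) and Limd1 (0.91), LIM proteins that restrain LATS, rose as well, and so did their relative Wtip (0.58, adjusted p = 0.0224, lost without EBIO array 1 or 2), while Wwc1, the scaffold KIBRA, fell by 0.52 (adjusted p = 0.0326), a call lost without EBIO array 1 or 3 or control array 1 or 2. With the passages paired, Fat1 (0.50, adjusted p = 0.00961 against 0.0946 unpaired), Taok1 (0.41, 0.012 against 0.062) and Rassf1 (0.49, 0.015 against 0.111) were called higher too.

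In differentiated cells 9 of 15 upstream genes rose and 2 fell, with a median of 0.34. Fat1, an atypical cadherin, read 12.25 and 12.34 with EBIO, against 11.15 and 11.17 in controls (1.14, SE 0.07, adjusted p = 6.31e-05). The kinase genes Taok3 (1.03, adjusted p = 0.0001) and Taok1 (0.67, adjusted p = 0.000959) rose, and Rassf1, a scaffold of the kinases, fell (-0.82, adjusted p = 0.000652). Nf2 was higher here, at 9.23 and 9.22 with EBIO, against 8.75 and 8.76 in controls (0.47, SE 0.07, adjusted p = 0.00153), so its direction was the reverse of that in ES cells. The Nf2 difference stayed at 0.46 to 0.48 whichever array was left out, and its call was lost in the fit on all 4 groups with every array kept (SE 0.24, adjusted p = 0.141). Rassf1 was called in that fit with every array (adjusted p = 0.0192) and lost its call whichever was left out, at -0.92 to -0.72 (adjusted p = 0.0501 to 0.115). Taok1 lost its call there without EBIO array 2 or control array 2, at 0.61 each (adjusted p up to 0.0583); those of Fat1 and Taok3 were kept in every alternative run.

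Of the 4 proteins that bind and restrain YAP or TEAD, Amot and Ptpn14 rose in ES cells. Amot, the angiomotin that holds YAP at junctions, read 8.92, 8.51 and 9.28 with EBIO, against 4.23, 4.11 and 5.68 in controls (4.23, SE 0.39, adjusted p = 5.27e-05). Only 1 control array passed its median, and its 2 dimmer probe sets differed by -0.22 and 0.80. Ptpn14, a phosphatase that binds YAP and is also a target gene, read 9.41, 9.70 and 9.66 with EBIO, against 6.16, 6.50 and 7.27 in controls (2.95, SE 0.26, adjusted p = 3.79e-05). Its other probe sets differed by 1.73 and 0.41. Amotl1 (-0.04, adjusted p = 0.854) and Vgll4 (0.14, adjusted p = 0.525) were not called. In differentiated cells Amot measured 11.20 and 11.34 with EBIO, against 11.26 and 11.32 in controls, and was not called (adjusted p = 0.836). There Amotl1 fell by 0.78 (SE 0.08, adjusted p = 0.000359), Vgll4, which competes with YAP for TEAD, fell by 0.57 (adjusted p = 0.00576), and Ptpn14 rose by 0.27 (adjusted p = 0.0153). In the fit on all 4 groups Ptpn14 was not called with every array kept (SE 0.28, adjusted p = 0.47) and differed by 0.25 to 0.28 whichever array was left out. Vgll4 was called there with every array (adjusted p = 0.0251) and lost its call without EBIO array 2 or either control array, its difference lying at -0.72 to -0.42 over the 4 fits that each lack 1 array.

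**Figure D5:**
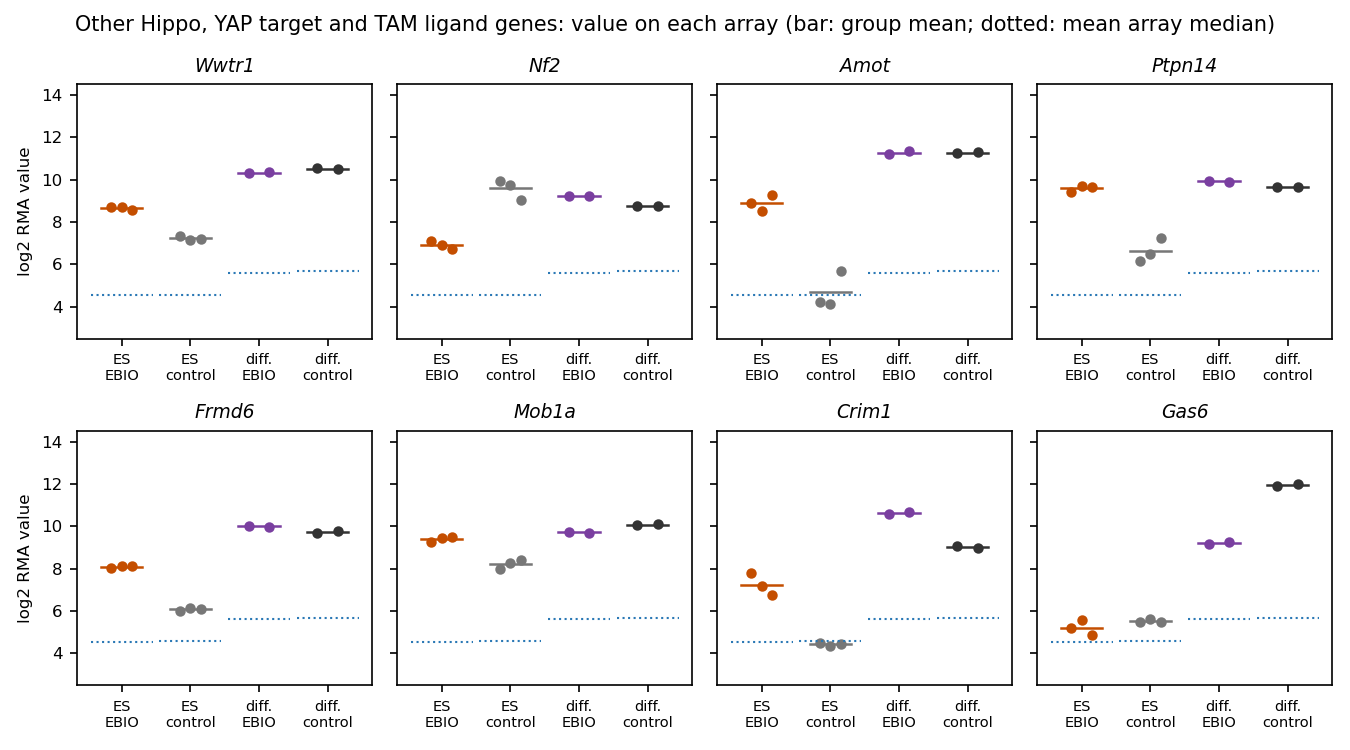
Log2 RMA value (vertical axis) of 8 other pathway genes on each array in the 4 groups, with bars for group means and dotted lines for the mean array median. Nf2 lies lower with EBIO in ES cells (6.74 to 7.09 against 9.06 to 9.96) and slightly higher in differentiated cells, Amot, Ptpn14, Frmd6 and Crim1 lie higher with EBIO in ES cells, and Gas6 lies lower with EBIO in differentiated cells (9.17 and 9.27 against 11.89 and 12.01).

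Wwtr1, which encodes TAZ, the paralog of YAP, rose in ES cells. It read there 8.72, 8.70 and 8.58 with EBIO, against 7.33, 7.17 and 7.20 in controls (1.43, SE 0.12, adjusted p = 2.7e-05). In differentiated cells it read 10.31 and 10.35 with EBIO, against 10.55 and 10.49 in controls (-0.19, SE 0.07), which was not called (adjusted p = 0.0537, and 0.00695 to 0.458 over the alternatives). The other TEAD genes moved little: Tead3 by 0.32 in ES cells (adjusted p = 0.0575, and 0.0365 with the passages paired) and Tead4 by 0.17 (adjusted p = 0.379), and by -0.25 and -0.14 in differentiated cells (adjusted p = 0.0922 and 0.391). With the pairing the list of the YAP paralog and TEAD partners had 2 of 5 higher in ES cells instead of 1.

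A signature of 16 other YAP targets, taken from textbook knowledge, was mixed. In ES cells 6 of 13 tested rose, 0 fell and the median was 0.66, while 7 had an unadjusted p under 0.05. With the passages paired 7 rose, the seventh being Asap1 (0.83, adjusted p = 0.00811 against 0.0537 unpaired), which was named after its values were seen. Besides Ptpn14, the largest rises were those of Crim1 and F3. Crim1, a membrane protein that binds BMP ligands, read 7.80, 7.17 and 6.75 with EBIO, against 4.49, 4.33 and 4.45 in controls, all 3 dim. By this probe set it stood at least 6.33-fold higher (adjusted p = 3.13e-05). Its dimmer probe set had means of 4.31 with EBIO and 3.24 in controls and differed by 1.07. F3, which encodes tissue factor, read 9.63, 9.39 and 9.12 with EBIO, against 6.71, 6.73 and 7.58 in controls (2.37, SE 0.25, adjusted p = 9.66e-05). In differentiated cells 4 of 15 rose and 6 fell, with a median of -0.06. Crim1 rose by 1.60 (SE 0.08, adjusted p = 2.4e-05) and Gadd45a, a stress-response gene, by 0.98 (adjusted p = 0.000171). Ccdc80, a matrix protein, fell by 6.14, at 6.09 and 6.45 with EBIO against 12.43 and 12.39 in controls (SE 0.13, adjusted p = 1.93e-06). Igfbp3, a secreted carrier of insulin-like growth factors, fell by 2.25 (adjusted p = 5.77e-05) and Myof, a membrane-repair protein, by 2.00 (adjusted p = 1.09e-05). All 8 fibroblast markers fell on the same arrays, and their part in these falls was not tested.

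The relatives of Ccn1, Ccn2 and Axl were mostly dim or lower. Of the CCN family only Ccn4 passed the filter in differentiated cells, where it read 8.77 and 9.08 with EBIO, against 10.87 and 10.88 in controls (-1.95, SE 0.11, adjusted p = 4.73e-05), and only Ccn5 passed it in ES cells, where it was not called (adjusted p = 0.848). All 4 other TAM genes fell in differentiated cells, where 32.6% of all genes fell and Axl was lower too. Gas6, the ligand of Axl, read 9.17 and 9.27 with EBIO, against 11.89 and 12.01 in controls (-2.73, SE 0.08, adjusted p = 4.74e-06). Pros1, another TAM ligand, fell by 2.04 (adjusted p = 1.01e-05) and Mertk, a TAM receptor of phagocytes, by 1.29 (adjusted p = 3.8e-05). These 3 calls were kept in every alternative run, and the macrophage markers, all 6 dim with EBIO, fell on the same arrays; their part was not tested. In ES cells Pros1 fell by 0.83 (adjusted p = 0.00791), the other 3 not being called. With the passages paired Tyro3, a TAM receptor named after its values were seen, was called lower too (-0.42, adjusted p = 0.012 against 0.069 unpaired).

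Serum response factor (SRF) shares actin tension with YAP as an input, and its target genes rose in ES cells: 11 of 11 tested rose, with a median of 2.09. Acta2, smooth muscle actin, read 11.84, 11.44 and 11.34 with EBIO, against 7.72, 5.70 and 6.37 in controls (4.94, SE 0.43, adjusted p = 3.91e-05); its 2 dim probe sets differed by 0.06 and -0.03. Tagln, an actin-binding protein of smooth muscle, rose by 4.80 (adjusted p = 5.61e-06) and Tpm1, a tropomyosin, by 3.13 (adjusted p = 1.37e-06). In differentiated cells 10 of 12 rose and 2 fell, with a median of 0.45. Myl9 (2.44, adjusted p = 1.57e-05), Cnn1 (2.33, adjusted p = 1.33e-05) and Srf itself (1.87, adjusted p = 1.35e-05) rose most, and Actg2 (-2.55, adjusted p = 4.04e-06) and Fhl2 (-0.64, adjusted p = 0.00161) fell. With the fit on all 4 groups 4 of the 12 were called higher, Tpm1 (1.83) among them. Fhl2 was called lower in that fit with every array kept (SE 0.22, adjusted p = 0.0354) and lost its call whichever array was left out, at -0.74 to -0.54 (adjusted p = 0.0759 to 0.176).

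Markers of other cells moved with the ES differences. Of the 6 smooth muscle markers 3 rose, their summed linear level being 6563 to 7789 with EBIO, against 299.4 to 574.5 in controls, with Myh11 and Actg2 dim on every ES array; Acta2, Tagln and Cnn1 are shared with the SRF list. Of the 8 trophoblast markers 3 rose and 1 fell (8851 to 11759 with EBIO, against 1238 to 1455 in controls); the rises were those of Krt8, Krt18 and Gata3, the fall that of Tfap2c, and Elf5 was dim throughout. Of the 8 extraembryonic endoderm markers 3 rose and 2 fell (1214 to 1742 with EBIO, against 326.0 to 334.3 in controls), with Gata4, Sox17 and Sox7 not above the median on every array of either group. The ratio of the 3′ to the 5′ Actb control probe set, a sign of RNA or labelling quality, was 0.14 ± 0.06 log2 with EBIO and 0.42 ± 0.09 in controls (SD, n = 3 each). The same ratio for Gapdh was 0.02 ± 0.02 with EBIO and -0.01 ± 0.07 in controls. The part of each in the pathway genes' differences was not tested.

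The EBIO difference itself differed between the stages for many of the other pathway genes. In the fit on all 4 groups, 6 of 60 tested were higher and 37 lower in differentiated than in ES cells (20.5% and 25% of all 13712 genes), with a median of -0.89 beside 0.04 for all genes. For Wwtr1 the difference between the stages was -1.62 (SE 0.15, adjusted p = 6.33e-06), for Ptpn14 -2.68 (adjusted p = 0.000108), for Frmd6 -1.76 (adjusted p = 3.69e-06) and for Nf2 3.15 (adjusted p = 1.27e-05). These 4 kept their calls in every alternative run.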

How the data were processed

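RNA of 10 samples was measured on Affymetrix mouse arrays. Per the submitters' processing notes, the authors obtained the deposited log2 values with RMA, whose version is not given in the sources used here. It estimates a background, forces arrays to 1 distribution and summarises probes, which compresses dim values. No read depth applies, and the number of arrays limits the precision. Of 45101 probe sets, 64 controls were left out, and 34945 had 1 gene symbol in the platform annotation (932 had several, 9224 none). For 34741 the symbol was taken from RefSeq through the gene's ID.

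A gene was represented by its brightest probe set, by mean over 10 arrays. Genes above the array's 50th percentile on 3 or more ES arrays, or on 2 or more in fits with differentiated arrays, were tested with limma 3.58.1 under R 4.3.3, each EBIO comparison on its own arrays and the stage difference on all 4 groups. Benjamini-Hochberg adjustment ran over all genes tested, with a threshold of 0.05. The procedure was tested on simulated data. Each p-value sets a difference against an error that limma estimates from the gene's spread between these samples and from that of all genes tested.

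The 10 genes and the lists were chosen with earlier results of these data known. Named by rule were the 10 genes, 10 fixed pathway genes, up to 3 called genes per list, comparison and direction, and the 5 genes most like Ccn1 and Ccn2. ES samples of the same number share a passage, and that label pairs them. Correlations of their deviations from the group means were 0.33, 0.23 and 0.62 at the same number, against -0.513 to 0.244 across numbers. EBIO sample 2 was as close to control 1 (0.244) as to control 2 (0.231), so these correlations do not set the pairing. The fit without pairing was the planned one. Alternatives were the pairing as a block, the mean of all probe sets, other filters, median or quantile scaling, an intensity trend, a fit on all 4 groups and leaving out each array. Promoters are RefSeq sequences of GRCm38.p6.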

Additional observations from a re-analysis of the deposited data

Results flagged for a closer look

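The EBIO difference itself differed between differentiated and ES cells, in the fit on all 4 groups with limma (differentiated minus ES, log2), for 34 of the 42 named genes tested outside the 10 pathway genes, 6 upwards and 28 downwards, with adjusted p up to 0.044. Of all 13712 genes tested, 20.5% were called higher and 25% lower. Many of the named genes were named because they were called in this same comparison, so nothing is read from the count of 34. Among regulators of YAP the values were 3.15 for Nf2, -4.25 for Amot, -2.68 for Ptpn14, -1.76 for Frmd6, -1.62 for Wwtr1, -1.52 for Mob1a, -1.31 for Rassf1 and -1.17 for Lats1. Smaller values were those of Sav1 (-0.90), Limd1 (-0.76), Wtip (-0.76), Amotl1 (-0.74), Vgll4 (-0.71), Tead3 (-0.57), Ajuba (-0.53), Wwc2 (0.67) and Taok3 (0.99). Among target genes they were -6.28 for Ccdc80, -2.67 for Ccn4, -2.55 for F3, -2.21 for Igfbp3, -2.14 for Myof, -1.22 for Crim1 and 0.84 for Gadd45a, and among TAM genes -2.40 for Gas6, -1.35 for Mertk and -1.20 for Pros1. SRF targets gave -4.46 for Tagln, -3.92 for Acta2, -2.60 for Actg2, -2.37 for Fhl2, -1.29 for Tpm1, 0.72 for Cnn1 and 1.02 for Myl9. Ccdc80, Ccn4 and Actg2 were too dim to be tested in ES cells, so their values set a measured stage against a dim one. Of the 3 ES control arrays, all were dim for Crim1 and 2 for Amot, so their values rest on dim controls. Of the 34, 23 kept this call in every alternative run. With the mean of all probe sets the calls of Crim1 (adjusted p = 0.19) and Acta2 (adjusted p = 0.47) were lost, and with quantile normalization those of Tead3 (adjusted p = 0.108) and Ajuba (adjusted p = 0.0939). The calls of Ajuba, Cnn1, Gadd45a, Limd1, Sav1, Tead3, Vgll4, Wtip and Wwc2 were each lost without at least 1 array. Of the 10 pathway genes, 0 had every EBIO array above control at one stage and below it at the other. The share of all genes that did so is not given here, so nothing is read from this count.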

How the results depend on the processing

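Over the named genes with a test, 1641 of 1813 results under an alternative kept their direction and side of the threshold, 134 lost a call, 38 gained one and 0 reversed a call. The sign changed in 23 of these results, over 9 differences of at most 0.14 in size in the planned fit, 0 of them called with either sign. The replicate block, which pairs the ES samples, gave 3333 genes higher and 3141 lower in ES cells, against 2846 and 2567 unpaired. It changed no call of a gene named by rule in ES cells other than those of Tead3, Mob1b, Fat1, Taok1 and Rassf1, and for the stage difference only that of Fat1 (adjusted p = 0.0127). In differentiated cells, where the numbers only name samples (correlation -0.129), it gave 3731 higher and 3761 lower, against 4111 and 4023, and ended the calls of Lats1 (adjusted p = 0.0604) and Frmd6 (adjusted p = 0.0568). Crossing the numbers there, an alternative chosen after seeing the data, gave 4076 higher and 4041 lower. In differentiated cells the fit on all 4 groups, whose spread includes the ES arrays, gave 2625 genes higher and 2973 lower and, of the pathway lists, 13 higher and 15 lower; the 75th percentile filter, which tests fewer genes, gave 2529 lower. Leaving out 1 array in turn gave 2393 to 2982 genes higher and 1997 to 2834 lower in ES cells, and 1669 to 1804 higher and 2305 to 2354 lower in differentiated cells, where the fit was the one on all 4 groups and the lone array is assumed to vary like the other groups. For the pathway lists it gave 26 to 33 higher and 2 to 5 lower in ES cells, 8 to 10 higher and 12 to 13 lower in differentiated cells, and 3 to 7 higher and 32 to 37 lower for the stage difference. Leaving out both passage 27 arrays, also chosen after seeing the data, left 31 list genes higher and 4 lower in ES cells. The ES differences of Ccn1, Ccn2, Amotl2, Vgll3, Tead1 and Lats2 stayed above 0 in all alternatives run, lowest for Lats2 with the mean of all probe sets (0.81). Yap1 changed sign in 1 of 15 in ES cells, near 0. Signal limits Ankrd1 and Axl in ES cells, which were dim.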
